A study of Mus musculus with 12 samples.

Results

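Loss of Rif1 was examined in female mouse embryonic stem cells (mESC) by comparing 2 RNA sequencing libraries labelled Rif1 KO with 2 labelled Rif1 WT, which are 4 of the 12 libraries of the study. The members of the comparison were all genes with enough counts to be tested, which left 17115 of the 24391 gene symbols in the count table. Both KO lines carried the genotype Rif1F/F (both copies of Rif1 flanked by sites for the Cre recombinase) with Rs26+/CreERT, and both WT lines carried Rif1+/+ with Rs26+/CreERT, so a tamoxifen-inducible Cre was present in all 4. Each of the 4 lines was given 4-hydroxytamoxifen (OHT) for 2 days, the WT lines included, and grown in serum with leukemia inhibitory factor, the MEK inhibitor PD0325901 and the GSK3 inhibitor CHIR99021. All lines came from a cross of C57BL/6J-129/SvJ with Mus musculus castaneus. The same 4 lines without OHT, labelled pre deletion, served as a reference for differences that were already there between Rif1F/F and Rif1+/+ lines (2 libraries each). Each library came from a different line and no line had both genotypes, so line and genotype cannot be told apart in the comparison after OHT. As these are bulk RNA samples, fewer cells of a type and less RNA per cell cannot be told apart either.

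RIF1 is a large nuclear protein that binds protein phosphatase 1 and late-replicating chromatin at the nuclear lamina. It sets when regions of the genome are copied during S phase and acts with 53BP1 at broken DNA ends. In mESC it has been linked to silencing of genes of the early cleavage embryo and of repeats, and in female cells to the choice of which X chromosome is inactivated, the subject of the study from which these libraries come.

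Counts per library were 64808897 and 52351634 in WT replicates 1 and 2, and 29505686 and 32848254 in KO replicates 3 and 4. WT replicate 1 stood apart from the other 3 libraries. Its share of counts in Lars2 was 0.869%, against 0.0372% to 0.0863% in the others, and the 57 histone genes tested summed to 2965.5 counts per 1000000 (CPM), against 4787.9, 6667.0 and 7433.7 CPM in WT replicate 2 and KO replicates 3 and 4. The counts of called genes over all genes and in most lists are therefore followed by the counts without that library, and another library is named beside them where leaving it out changed a count by more than 1.5 times. Levels are CPM with library sizes scaled by the trimmed mean of M values. Log2 fold changes are KO over WT with their standard error (SE), and a gene was called higher or lower at an adjusted p under 0.05 in edgeR's quasi-likelihood test over all genes tested.

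Rif1 itself stood at 1605 and 1455 CPM in the WT libraries and 702 and 662 CPM in the KO libraries (log2 fold change -1.17 ± 0.08, adjusted p = 4.4e-09), and both KO libraries lay below both WT libraries. Before OHT the level was 1537 and 1752 against 1172 and 1172 CPM in the Rif1+/+ and Rif1F/F lines (log2 fold change -0.49 ± 0.08, adjusted p = 7.4e-05), so the gap between the genotypes widened after OHT (-0.68 ± 0.11 on the log2 scale, adjusted p = 9.8e-04). Counts covered the whole gene, and transcript left after the flanked part is cut out is counted too. The libraries carried the markers of mESC. The 12 markers summed to 6188 and 6088 CPM in the WT libraries and 6298 and 6626 CPM in the KO libraries, and 4 were higher and 2 lower in KO (2 and 2 without WT replicate 1). Markers of other cells that such cultures can hold were also read. Of 16 fibroblast markers, 12 had enough counts to be tested, 5 were higher and 2 lower (4 and 2 without WT replicate 1), and their sums, most of which was Fn1, ran from 2467 CPM in WT replicate 1 to 3436 CPM in KO replicate 4. From 9 to 10 of the 16 were at 1 CPM or more. Col3a1, Postn and Dcn were at or near 0 in all 4 libraries, with Dcn at 0.0164 and 0 against 0 and 0 CPM, whereas the collagen I chains Col1a1, at 1.56 and 1.41 against 2.51 and 3.98 CPM (log2 fold change 1.13 ± 0.26, adjusted p = 0.00254, with adjusted p = 0.0881 when KO replicate 4 was left out), and Col1a2, at 0.0164 and 0 against 0.86 and 1.2 CPM, were among the higher markers. Of 12 markers of primitive endoderm, 5 were higher and 3 lower (5 and 1 without WT replicate 1), with sums of 1064 and 1117 against 1326 and 1414 CPM. Of 11 trophoblast markers, 4 were higher and 2 lower (2 and 2 without WT replicate 1). Of 8 neural markers tested, 3 were higher and 4 lower, as they were without that library. Over all genes tested 19.8% were higher and 18.6% lower. The part of these cells in the results below was not tested.

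Expression differed between the KO and WT lines in a large share of genes and mostly by small amounts. After OHT 3384 genes (19.8% of those tested) were higher and 3188 (18.6%) lower in KO. Of these, 938 (5.48% of genes tested) were at least 2-fold higher and 758 (4.43%) at least 2-fold lower, while the median size of a called change was a log2 fold change of 0.53. Without WT replicate 1 the counts were 2633 higher and 2174 lower, and without KO replicate 4 they were 2159 and 1966. Before OHT 3402 genes (19.9%) were already higher and 2992 (17.5%) lower in the Rif1F/F lines. Of the genes higher after OHT, 1916 were also higher before it, which is 56.6% of the first list and 56.3% of the second. Of the genes lower after OHT, 1721 were also lower before it, which is 54% and 57.5% of the lists. Between the 2 comparisons the genotype difference moved towards higher levels in KO in 697 genes (4.07%) and towards lower levels in 649 (3.79%). These last counts rest on single libraries, with 503 and 328 without WT replicate 1, 1362 and 1178 without WT replicate 2, 369 and 235 without KO replicate 3, and 365 and 227 without KO replicate 4. Leaving out a library from before OHT gave 312 and 198 (Rif1+/+ replicate 1) and 367 and 266 (Rif1F/F replicate 4) where it moved them by more than 1.5 times. The codes that open the description labels differ between libraries with and without OHT, so effects of the treatment cannot be told apart from whatever those codes stand for.

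**Figure D1:**
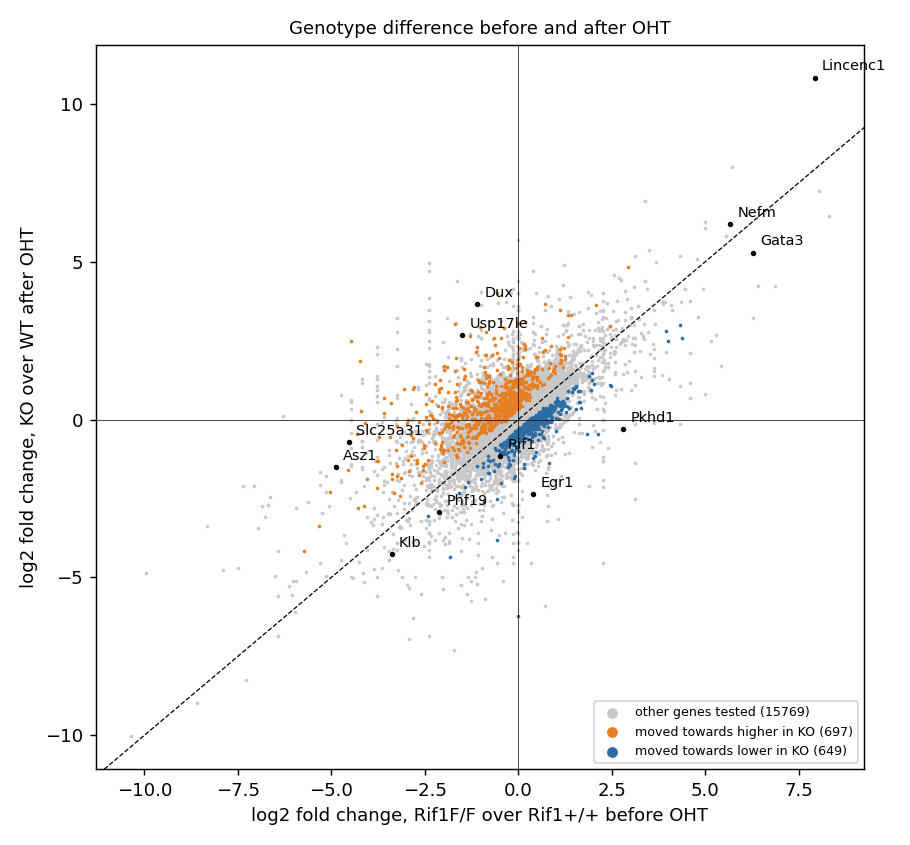
Log2 fold change of each of the 17115 genes tested, Rif1F/F over Rif1+/+ lines before OHT on the horizontal axis and KO over WT after OHT on the vertical axis. Grey points are all genes, orange points are the 697 genes whose difference moved towards higher levels in KO after OHT and blue points the 649 that moved towards lower levels, and some named genes are labelled. Lincenc1 and Nefm lie far from 0 on both axes, while Dux and Usp17le are above 2 on the vertical axis and below 0 on the horizontal one.

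The genes with the largest fold changes included enzymes, matrix proteins and transcription factors of lineages other than mESC. They are the 15 with the largest change in each direction among genes with at least 5 CPM in the higher group and no overlap between the groups. Tbx20, a T-box factor of the developing heart, was at 4.69 and 6.63 CPM in the WT libraries and 71.6 and 71.9 CPM in the KO libraries (log2 fold change 3.67 ± 0.13, adjusted p = 2.2e-12). Myl7, the atrial myosin light chain, was at 0.721 and 0.867 against 7.51 and 7.55 CPM in WT against KO (log2 fold change 3.25 ± 0.24, adjusted p = 1.5e-08). Gata3, a GATA factor of trophoblast and T cells, was at 0.262 and 0.173 against 8.7 and 8.75 CPM (log2 fold change 5.28 ± 0.22, adjusted p = 1.7e-11). In each of these 3 heart and trophoblast genes the KO libraries were close to each other and far above both WT libraries. Tll1, a protease of the tolloid family that processes procollagen and chordin, reached 1.13 and 0.848 against 17 and 17.9 CPM (log2 fold change 4.12 ± 0.20, adjusted p = 7.5e-11). Col6a1, a chain of collagen VI, was at 0.524 and 0.443 against 5.42 and 6.72 CPM (log2 fold change 3.63 ± 0.24, adjusted p = 5.3e-09). Ephx2, the soluble epoxide hydrolase, stood at 3.74 and 3.26 against 58 and 64.3 CPM (log2 fold change 4.12 ± 0.10, adjusted p = 2.0e-14). Ncoa7, a nuclear receptor coactivator, was at 2.62 and 2.93 against 21.7 and 22.8 CPM (log2 fold change 3.00 ± 0.16, adjusted p = 3.6e-10). All of these were called higher before OHT too, with Ncoa7 further apart before (4.32 ± 0.21) than after.

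Lincenc1, a noncoding RNA of mESC, and Nefm, a neurofilament subunit, had the largest fold changes of those 15 higher genes. Lincenc1 was at 0.0983 and 0.0385 against 135 and 134 CPM, and 0.475 and 0.59 against 129 and 129 CPM before OHT. Nefm was at 0.131 and 0.135 against 8.27 and 11.4 CPM, close to 0.264 and 0.0562 against 7.9 and 8.99 CPM before OHT. Its neighbour Nefl was at 4.9 and 5.42 against 37.8 and 38 CPM (log2 fold change 2.88 ± 0.14, adjusted p = 5.7e-11). Serpina3h, a member of a cluster of serine protease inhibitors, was at 0.688 and 0.443 against 16.7 and 15.9 CPM (log2 fold change 4.82 ± 0.22, adjusted p = 3.3e-11), and its change after OHT exceeded that before it (1.88 ± 0.32 on the log2 scale, adjusted p = 0.002). Several of these genes share sequence with others, so their counts are less certain. The share of 50-base words found in another gene was 21.9% for Serpina3h, mostly in Serpina3g, and 31.8% for Nefl, mostly in Nefm. It was 34.4% for Tmem181a, which was at 1.75 and 1.6 against 20.7 and 20.2 CPM, 49.3% for Nsa2, a ribosome assembly factor at 0.869 and 1.1 against 8.53 and 9.12 CPM, and 39.1% for 2700054A10Rik at 0.869 and 1.06 against 9.69 and 7.12 CPM.

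Among the genes that were lower, T (Brachyury, the mesoderm T-box factor and a Wnt target) was at 7.95 and 8.67 CPM in the WT libraries and 0.959 and 0.647 CPM in the KO libraries (log2 fold change -3.37 ± 0.21, adjusted p = 3.2e-09). Klb, the beta-Klotho co-receptor for endocrine fibroblast growth factors, was at 60.6 and 62.8 against 3.47 and 2.96 CPM (log2 fold change -4.26 ± 0.11, adjusted p = 2.8e-14). Its gap was larger than before OHT (-0.88 ± 0.16 on the log2 scale, adjusted p = 0.00245). Psma8, the proteasome subunit of spermatocytes, was at 20 and 19.3 against 0.86 and 1.29 CPM (log2 fold change -4.18 ± 0.19, adjusted p = 3.7e-11). Lrrk2, a kinase with leucine-rich repeats, was at 34.8 and 25.2 against 2.91 and 2.87 CPM (log2 fold change -3.38 ± 0.17, adjusted p = 1.0e-10). Both Psma8 and Lrrk2 lay even further below in the Rif1F/F lines before OHT, at 18.5 and 19.3 against 0.22 and 0.482 CPM and 19 and 17 against 0.342 and 0.555 CPM. Ano1, a calcium-activated chloride channel, was at 50.6 and 41.5 against 4.1 and 1.57 CPM (log2 fold change -4.03 ± 0.31, adjusted p = 2.6e-08), and both WT libraries were far above their own level before OHT, when the values were 5.3 and 6.89 against 0.562 and 0.434 CPM. Nek3, a NIMA-related kinase, was at 20.2 and 18.4 against 2.08 and 2.16 CPM (log2 fold change -3.19 ± 0.16, adjusted p = 1.2e-10). Pou2f3, a POU factor of tuft cells, was at 7.6 and 5.86 against 0.463 and 0.986 CPM (-3.20 ± 0.28 on the log2 scale). Sult5a1, a sulfotransferase, was at 5.97 and 4.8 against 0.364 and 0.616 CPM (-3.44 ± 0.31 on the log2 scale). Mep1b, a meprin protease subunit, was at 6.29 and 5.45 against 0.265 and 0.247 CPM (log2 fold change -4.51 ± 0.35, adjusted p = 3.8e-08). Cdh6, a cadherin, was at 4.05 and 6.23 against 1.03 and 0.154 CPM (log2 fold change -3.14 ± 0.54, adjusted p = 2.1e-04, and log2 fold change -5.03 without KO replicate 3) and below 0.1 CPM in all 4 libraries before OHT. Sytl3, a synaptotagmin-like protein, was at 62.4 and 60.3 against 2.08 and 1.73 CPM, and the unannotated 4930548H24Rik and LOC105246506 at 17.8 and 16.3 against 0.661 and 0.616 CPM and 10.3 and 7.9 against 0.529 and 0.37 CPM. Olig2, a factor of motor neurons and oligodendrocytes, was at 18.8 and 21.2 against 0 and 0.0308 CPM, with 1 count or none in each KO library, and its neighbour Olig1 was at 5.56 and 7.94 against 0.728 and 0.863 CPM (log2 fold change -3.07 ± 0.23, adjusted p = 2.8e-08).

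**Figure D2:**
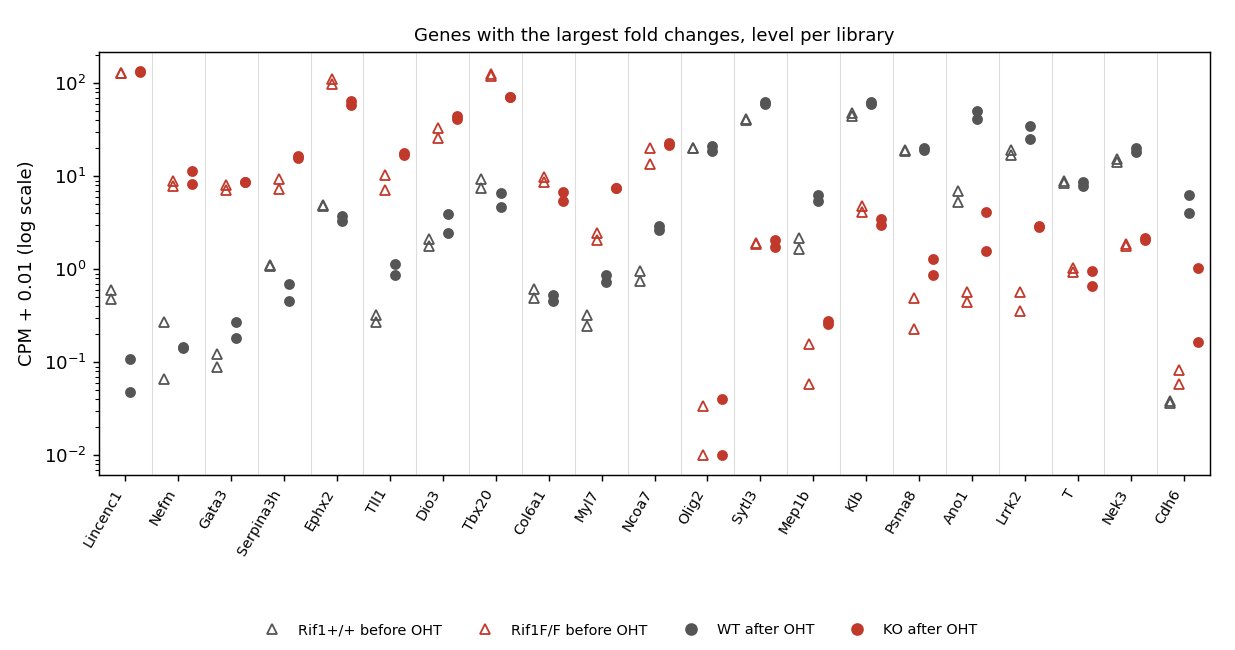
Level of genes with the largest fold changes in each of the 8 mESC libraries, in CPM on a log axis with 0.01 CPM added. Circles are libraries after OHT and triangles libraries before OHT, WT or Rif1+/+ in grey and KO or Rif1F/F in red. The genes shown were picked to have no overlap between red and grey circles after OHT. Cdh6 was below 0.1 CPM in all 4 libraries before OHT.

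The largest differences in level concerned abundant transcripts, most of which changed by less than 2-fold. Psme4, which encodes the proteasome activator PA200, was at 629 and 585 CPM in the WT libraries and 1318 and 1226 CPM in the KO libraries (log2 fold change 1.07 ± 0.07, adjusted p = 3.8e-09), higher in both KO libraries. Of the matrix and adhesion genes, Lamc1 (the laminin gamma 1 chain) was at 922 and 924 against 1119.8 and 1221 CPM (log2 fold change 0.34 ± 0.07, adjusted p = 6.9e-04), Dst (dystonin, a cytoskeletal linker) at 917 and 785 against 1297 and 1205 CPM (log2 fold change 0.56 ± 0.09, adjusted p = 9.1e-05) and Fn1 (fibronectin) at 2364 and 2333 against 2658 and 3284 CPM (log2 fold change 0.34 ± 0.08, adjusted p = 0.00408, with adjusted p = 0.145 when KO replicate 4 was left out, and log2 fold change 0.18 without KO replicate 4). Rplp0, a ribosomal protein, was at 430.0 and 566 against 774 and 825 CPM (log2 fold change 0.68 ± 0.10, adjusted p = 3.0e-05). The call for Fn1 rested on KO replicate 4, which was the highest of the 4 libraries. On the lower side Eef1a1, the translation elongation factor, was at 1688 and 1509 against 861 and 905 CPM (log2 fold change -0.86 ± 0.08, adjusted p = 2.0e-07). Hsp90aa1, a cytosolic chaperone, was at 1553 and 1373 against 848 and 841 CPM (log2 fold change -0.79 ± 0.07, adjusted p = 2.9e-07). Top2a, topoisomerase II alpha, was at 1382 and 1238 against 823 and 806 CPM (log2 fold change -0.69 ± 0.07, adjusted p = 5.0e-07). Flna, an actin cross-linker, was at 2119 and 2142 against 1543 and 1497 CPM (-0.49 ± 0.07 on the log2 scale). Xpo1, the nuclear exporter, was at 1033 and 972 against 651 and 659 CPM (-0.61 ± 0.07). The noncoding Malat1 was at 3907 and 3912 against 2923 and 2672 CPM (-0.48 ± 0.09). Eef1a1 and Hsp90aa1 share 40.4% and 47.5% of their 50-base words with other loci, so part of their reads may be counted elsewhere. Lars2, a mitochondrial leucyl-tRNA synthetase, was at 9229.5 and 871 against 363 and 769.7 CPM (log2 fold change -3.16 ± 0.82, adjusted p = 0.00588, with adjusted p = 0.494 when WT replicate 1 was left out and 0.0665 when KO replicate 3 was left out, and log2 fold change -0.60 without WT replicate 1), a difference carried by WT replicate 1.

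Runs of neighbouring genes were counted without a test. Along the chromosomes there were 49 runs of at least 3 adjacent tested genes that were all called in 1 direction and all changed at least 2-fold, 36 higher and 13 lower. The 3 longest runs, of 17, 16 and 15 genes, were all higher and all lay in the imprinted Dlk1-Dio3 region of chromosome 12. In that region Dlk1, Rtl1 and Dio3 are expressed from the paternal copy and the noncoding Meg3, Rian and Mirg from the maternal copy, and Rian and Mirg host clusters of small nucleolar RNAs and microRNAs. Of the 48 genes of the 3 runs, 41 were called higher before OHT as well. Dio3, the deiodinase that inactivates thyroid hormone, was at 3.93 and 2.45 CPM in the WT libraries and 41.5 and 44 CPM in the KO libraries (log2 fold change 3.73 ± 0.18, adjusted p = 5.6e-11). Dio3os, on the opposite strand, was at 0.639 and 1.0 against 7.67 and 7.58 CPM. No source used here states whether counting used strand, so overlapping genes on opposite strands cannot be told apart. Mirg was at 4.11 and 3.41 against 23.5 and 24.9 CPM (log2 fold change 2.68 ± 0.12, adjusted p = 3.8e-11). Rtl1 was at 2.69 and 2.49 against 16 and 16.8 CPM (log2 fold change 2.66 ± 0.10, adjusted p = 3.6e-12). Dlk1, a Notch-related membrane protein, was at 2.36 and 2.08 against 4.43 and 4.71 CPM (log2 fold change 1.04 ± 0.21, adjusted p = 9.0e-04) and did not pass the test before OHT (-0.28 ± 0.20), the difference between the 2 comparisons being 1.32 ± 0.29 on the log2 scale, adjusted p = 0.0109.

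The runs held 36 microRNA genes, with log2 fold changes from 1.60 to 4.88 and a median of 2.83. Their counts were few, 153 and 129 in all in the WT libraries and 516 and 588 in the KO libraries, and 9 of the 36 had a WT library at 0. Leaving out a library left 33 to 42 of the 48 genes called higher, 36 without WT replicate 1. They are counts over the microRNA genes inside host transcripts, so levels of the mature microRNAs were not measured. All 36 matched RefSeq, with 68 mature arms and 64 different seeds (bases 2 to 8, the part that pairs with target transcripts). Of the 4 seeds that occur in a pair of arms, 3 are shown with both arms, beside 1 arm whose seed occurs once, since the seed is what sets the targets of each member of the cluster (RefSeq, GRCm38.p6, 5′ to 3′, seed in capitals).
Mir1197, arm miR-1197-5p: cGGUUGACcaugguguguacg
Mir758, arm miR-758-5p: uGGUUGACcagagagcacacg
Mir453, arm miR-453: aGGUUGCCucauagugagcuugca
Mir496a, arm miR-496a-5p: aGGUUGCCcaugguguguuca
Mir3070a, arm miR-3070-3p: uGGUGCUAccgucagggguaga
Mir3070b, arm miR-3070-2-3p: uGGUGCUAuggucagggguaga
Mir134, arm miR-134-5p: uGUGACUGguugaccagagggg
The first 6 arms form 3 pairs, each with 1 seed. Mir3070a and Mir3070b were at 0.197 and 0.154 against 1.39 and 1.2 CPM and 0.229 and 0.251 against 1.19 and 1.29 CPM, Mir453 at 0.262 and 0.231 against 1.29 and 1.42 CPM, Mir134 at 0.131 and 0.212 against 0.794 and 1.08 CPM and Mir758 at 0.0492 and 0.0771 against 0.529 and 0.431 CPM. The KO libraries were the higher ones for each of them.

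Other imprinted genes moved in both directions. The imprinted list counted here also holds genes of the Dlk1-Dio3 region, among them Meg3, Rian, Rtl1 and Mirg. No count without that region is given. In the imprinted list 25 of 57 tested members were higher (43.9%) and 7 lower (12.3%), against 19.8% and 18.6% of all genes tested. The median log2 fold change of the list was 0.30, against -0.00 over all genes tested. The counts became 23 and 4 without WT replicate 1 and 21 and 3 without KO replicate 4. Ndn, a MAGE-family gene of the Prader-Willi region, was at 18.1 and 20.6 CPM in the WT libraries and 47.2 and 47.9 CPM in the KO libraries (log2 fold change 1.30 ± 0.08, adjusted p = 4.3e-09), and its 2 groups did not differ before OHT beyond their spread (log2 fold change 0.06 ± 0.09, adjusted p = 0.618). Its neighbours Mkrn3 and Peg12 were at 5.8 and 5.67 against 12 and 10.4 CPM (0.96 ± 0.12) and 24.2 and 26.3 against 52.9 and 50.6 CPM (1.04 ± 0.11). H19, a noncoding RNA, was at 29.2 and 17.4 against 44.6 and 54.8 CPM (log2 fold change 1.09 ± 0.20, adjusted p = 3.8e-04). Peg10, a retroelement-derived gene, was at 99.6 and 65.6 against 144 and 163 CPM (log2 fold change 0.89 ± 0.15, adjusted p = 1.4e-04). Both were closer to WT after OHT than before it, with before values of 2.45 ± 0.22 and 1.60 ± 0.15. Inpp5f, an inositol phosphatase, was lower at 36.1 and 35 against 14.7 and 15.4 CPM (log2 fold change -1.24 ± 0.09, adjusted p = 8.2e-09). Airn, the antisense transcript of Igf2r, was at 1.02 and 1.02 against 0.628 and 0.37 CPM (log2 fold change -1.03 ± 0.34, adjusted p = 0.0235, with adjusted p = 0.0724 when WT replicate 1 was left out, 0.0518 when WT replicate 2 was left out and 0.25 when KO replicate 4 was left out), while Igf2r was at 548 and 519.5 against 555 and 546 CPM and was not called.

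Runs outside that region held related genes. On chromosome 12 the protease inhibitors Serpina3c, Serpina3g, Serpina3h and Serpina3i were all higher, Serpina3i at 2.47 and 2.06 against 6.81 and 6.78 CPM (log2 fold change 1.58 ± 0.22, adjusted p = 2.6e-05). On chromosome 15 Hoxc12, Hotair, Hoxc11, Hoxc10 and Hoxc9 were higher, with Hoxc12 at 0.492 and 0.944 against 1.85 and 2.13 CPM (log2 fold change 1.49 ± 0.31, adjusted p = 0.00105), all below 2.5 CPM in every library. The genes of the Hox clusters set position along the body axis. Of 34 tested Hox members, 13 were higher (38.2%) and 3 lower (8.82%), against 19.8% and 18.6% of all genes tested. The counts became 10 and 1 without WT replicate 1, 6 and 0 without KO replicate 3 and 11 and 1 without KO replicate 4. On chromosome 9 the T cell receptor chains Cd3g, Cd3d and Cd3e were lower, at 6.54 and 7.92 against 1.32 and 0.832 CPM, 3.44 and 3.62 against 1.55 and 0.894 CPM and 4.0 and 4.9 against 1.79 and 1.63 CPM, and so were Thy1, Usp2, Rnf26 and Mcam, with the adhesion molecule Mcam at 257 and 220.4 against 91.3 and 95.3 CPM (log2 fold change -1.36 ± 0.11, adjusted p = 6.7e-08). On chromosome 16 the interferon-induced Mx1 and Mx2 and their neighbour Fam3b were all lower, at 4.85 and 3.8 against 1.95 and 1.91 CPM, 0.787 and 0.559 against 0.331 and 0.308 CPM and 6.01 and 4.68 against 2.28 and 2.16 CPM. On chromosome 12 Tcl1, a coactivator of AKT kinase in mESC, was at 139 and 140.0 against 35.1 and 34.8 CPM (log2 fold change -1.99 ± 0.07, adjusted p = 1.7e-12), and its neighbours Tcl1b2 and Tunar were lower as well, at 1.03 and 0.887 against 0 and 0 CPM and 7.34 and 6.57 against 1.49 and 0.955 CPM. On chromosome 19 Mpeg1, Dtx4 and Fam111a were higher, Fam111a at 23.1 and 24.2 against 74.5 and 71.7 CPM (log2 fold change 1.63 ± 0.07, adjusted p = 3.3e-11). Counted by chromosome, chromosome 16 had the largest share of lower genes, 28.2% of 517 tested against 13.7% higher, and its median log2 fold change was -0.11. Without WT replicate 1 it held 63 higher and 82 lower genes, in place of 71 and 146, and its share of lower genes was then no longer the largest, with 71 of 424 lower on chromosome 18.

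Dux, the homeobox factor that switches on genes of the cleavage embryo, had a genotype difference that moved upward between the comparisons. It was at 0.0819 and 0.0578 CPM in the WT libraries and 1.03 and 0.832 CPM in the KO libraries after OHT (log2 fold change 3.65 ± 0.50, adjusted p = 2.2e-05) and at 0.0528 and 0.112 against 0.0734 and 0 CPM before it, a difference between the comparisons of 4.75 ± 1.23 on the log2 scale, adjusted p = 0.0231. Genes that are induced by Dux or mark the rare cells of mESC cultures that resemble the 2-cell embryo were read as a list. Eif1a and Eif1ad, also in the list, were far more abundant than its other members. Before OHT 1 of 29 members with enough counts was higher, Eif1ad at 47.1 and 50 against 56.4 and 59.1 CPM, and none lower. Several members, such as Gm2022, Gm5662 and Usp17ld, had no counts before OHT and could not be called there. Gm10696 and Tdpoz2 had none in any mESC library. The difference between the comparisons itself passed the test for 2, Dux and Usp17le. After OHT 14 of the 29 were higher (48.3%) and 1 lower, against 19.8% and 18.6% of all genes tested. The counts became 12 and 1 without WT replicate 1, 9 and 1 without WT replicate 2 and 9 and 1 without KO replicate 4. Usp17le, a deubiquitinase gene of this group, was at 0.328 and 0.173 against 1.72 and 1.6 CPM (log2 fold change 2.68 ± 0.26, adjusted p = 5.5e-07) and at 0.106 and 0.112 against 0.0489 and 0.0241 CPM before OHT. Tmem92 was at 0.41 and 0.173 against 3.27 and 3.11 CPM (log2 fold change 3.40 ± 0.26, adjusted p = 3.1e-08), and 0.0264 and 0 against 0.0245 and 0.0723 CPM before. Zscan4d, a SCAN-domain gene linked to telomere maintenance, was at 0.197 and 0.0578 against 0.463 and 1.11 CPM (log2 fold change 2.56 ± 0.52, adjusted p = 9.0e-04, with adjusted p = 0.0559 when KO replicate 4 was left out). Zfp352, a zinc finger gene of the cleavage embryo, was at 0.0819 and 0.0193 against 0.331 and 0.216 CPM (log2 fold change 2.29 ± 0.66, adjusted p = 0.0101, with adjusted p = 0.059 when WT replicate 2 was left out and 0.0909 when KO replicate 3 was left out, and log2 fold change 3.62 without WT replicate 1). Usp17lb was at 0.0492 and 0.0964 against 0.628 and 0.431 CPM, Usp17la at 0.197 and 0.0964 against 0.463 and 0.493 CPM, Gm5039 at 0.361 and 0.328 against 1.36 and 1.54 CPM and Gm2022 at 0.115 and 0.0578 against 0.43 and 0.339 CPM. In all of these the KO libraries were above the WT libraries, but apart from Tmem92, Usp17le and Gm5039 every library stayed near or below 1 CPM. Zscan4c, Zscan4f and Tdpoz3, at 0.0656 and 0 against 0 and 0.0924 CPM, 0 and 0 against 0.0992 and 0 CPM and 0.115 and 0 against 0.132 and 0.0616 CPM, were not called, and Tcstv1, Tcstv3 and Gm4340 were listed at 0 in all 4 libraries. Family members share sequence (29.8% of 50-base words for Usp17le), so single copies are uncertain. Arg2 and Sp110 were not called (0.12 ± 0.32 and 0.96 ± 0.69), and Eif1a was the lower member (-0.43 ± 0.08).

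**Figure D3:**
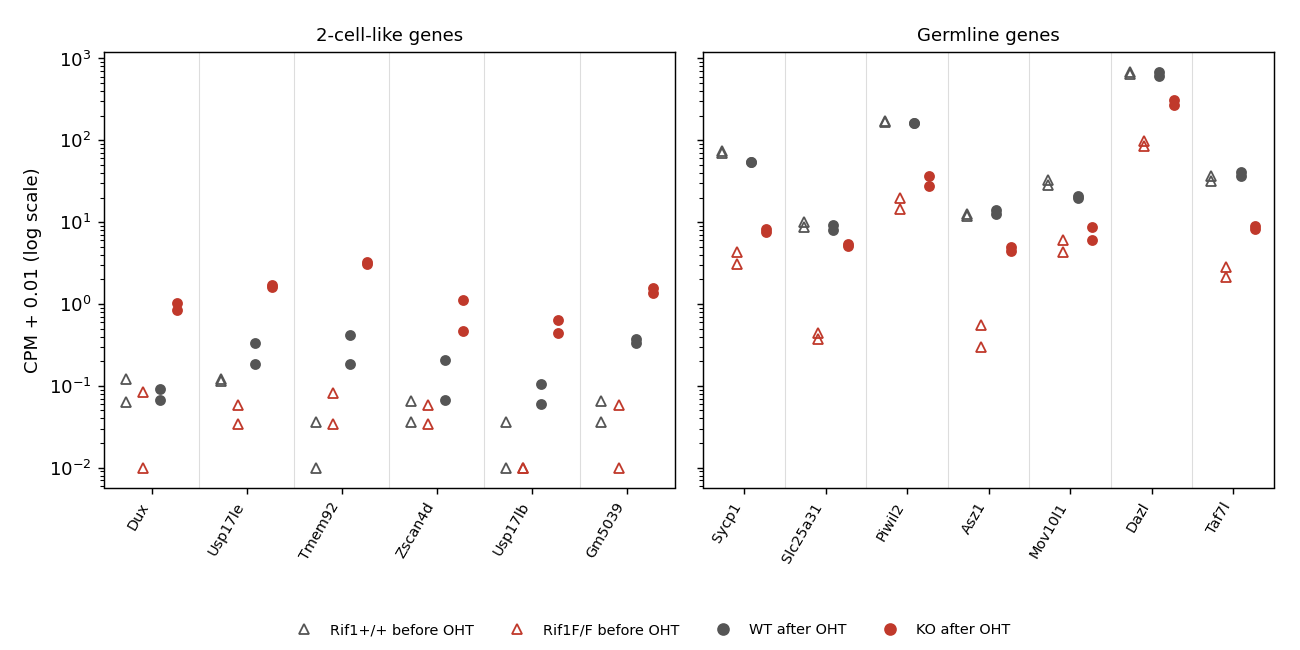
Level in CPM, on a log axis with 0.01 CPM added, of 2-cell-like genes in the left panel and germline genes in the right panel for each of the 8 mESC libraries. Circles are libraries after OHT and triangles before OHT, with WT or Rif1+/+ in grey and KO or Rif1F/F in red. The 2-cell-like genes shown are highest in the red circles, and the germline genes shown are lowest in the red triangles, with the red circles between those and the WT libraries.

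Many germline genes were lower in KO after OHT, and for some of them the gap had been wider in the same lines before it. These genes are silenced in most somatic cells by DNA methylation and by the E2F6 repressor complex. The shares over all genes tested were 19.8% higher and 18.6% lower. Of genes of meiosis and the synaptonemal complex, 4 of 33 tested members were higher (12.1%) and 18 lower (54.5%). These became 4 and 18 without WT replicate 1. Before OHT 21 were lower and 2 higher, and the difference between the comparisons was positive in 11 and negative in 4. Sycp1, the transverse filament of the synaptonemal complex, was at 54.7 and 54.8 against 8.17 and 7.64 CPM after OHT and 70.5 and 73 against 4.3 and 3.11 CPM before it (1.48 ± 0.15 on the log2 scale, adjusted p = 2.0e-05). Slc25a31, the germline ADP/ATP carrier, was at 9.34 and 8.1 CPM in the WT libraries and 5.16 and 5.45 CPM in the KO libraries (log2 fold change -0.72 ± 0.14, adjusted p = 5.8e-04) and at 9.97 and 8.77 against 0.367 and 0.434 CPM before OHT (log2 fold change -4.54 ± 0.20, adjusted p = 2.5e-11). The Rif1F/F lines were thus under 0.5 CPM before OHT and above 5 CPM after it. Dmc1, the meiotic recombinase, was at 31.2 and 29.3 against 10.2 and 7.83 CPM (log2 fold change -1.75 ± 0.11, adjusted p = 2.7e-09). Hormad2, a chromosome axis protein, was at 35.5 and 30.6 against 10.3 and 8.57 CPM (log2 fold change -1.81 ± 0.13, adjusted p = 1.2e-08). Syce1, another synaptonemal complex protein, was higher at 12 and 11.5 against 41.4 and 32.1 CPM (log2 fold change 1.64 ± 0.11, adjusted p = 3.8e-09) and had not been before (-0.26 ± 0.12), and so was Rec8, a meiotic cohesin, at 10.6 and 11.7 against 18.4 and 18.3 CPM (log2 fold change 0.72 ± 0.13, adjusted p = 2.4e-04). Smc1b and Hormad1 were lower after OHT (-0.94 ± 0.12 and -0.60 ± 0.11) but not before it (-0.06 ± 0.12 and -0.04 ± 0.10), and both differences passed the test (-0.89 ± 0.17 and -0.56 ± 0.15).

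The piRNA pathway silences transposons in germ cells. Before OHT 2 of its 22 tested members were higher and 17 lower. After OHT 3 were higher (13.6%) and 12 lower (54.5%), against 19.8% and 18.6% of all genes tested. The counts became 3 and 9 without WT replicate 1. Piwil2, an Argonaute protein that carries piRNAs, was at 161 and 163 CPM in the WT libraries and 36.7 and 27.9 CPM in the KO libraries (log2 fold change -2.32 ± 0.13, adjusted p = 4.1e-10), and at 173 and 168 against 19.7 and 14.3 CPM before OHT. Asz1, a scaffold of the piRNA granule, was at 14 and 12.5 against 4.9 and 4.44 CPM (log2 fold change -1.51 ± 0.13, adjusted p = 1.3e-07) and at 12.6 and 12 against 0.538 and 0.289 CPM before. Mov10l1, the helicase of piRNA production, was at 21 and 19.9 against 8.67 and 6.1 CPM (log2 fold change -1.47 ± 0.15, adjusted p = 1.2e-06). Ddx4, the VASA helicase, was at 25 and 22.5 against 13.6 and 14.9 CPM (log2 fold change -0.73 ± 0.09, adjusted p = 1.2e-05). Tdrd9, a tudor-domain helicase, was at 8.77 and 9.0 against 2.91 and 2.59 CPM (log2 fold change -1.69 ± 0.17, adjusted p = 8.6e-07). Tdrd12 went the other way, with a gap that was wider after OHT, at 119.7 and 120.3 against 45.1 and 45.3 CPM after and 117 and 123 against 77.2 and 78.9 CPM before it (-0.79 ± 0.09 on the log2 scale, adjusted p = 5.0e-05). Tdrd1 and Tdrkh, at 1.75 and 1.68 against 2.02 and 2.53 CPM and 2.64 and 3.01 against 2.84 and 3.45 CPM, were not called after OHT although both had been lower before it (-2.05 ± 0.22 and -1.85 ± 0.21). Rnf17, Gpat2 and Gtsf1l were the 3 higher members, the first 2 at 158 and 147 against 210.4 and 206 CPM (0.45 ± 0.06) and 38.7 and 44.3 against 56.8 and 56.2 CPM (0.45 ± 0.10).

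Other germ cell genes and the X-linked Rhox and Xlr families were read as well, against 19.8% higher and 18.6% lower of all genes. Among RNA-binding and transcription factors of germ cells, 9 of 35 tested members were higher (25.7%) and 12 lower (34.3%) after OHT, against 3 and 19 before it, with a positive difference in 15 and a negative one in 1. The counts became 8 and 11 without WT replicate 1. Dazl, an RNA-binding protein that licenses germ cells, was at 608 and 687 CPM in the WT libraries and 308 and 268 CPM in the KO libraries (log2 fold change -1.17 ± 0.08, adjusted p = 1.2e-08) and 642 and 682 against 97 and 84.9 CPM before OHT. Taf7l, a germline subunit of TFIID, was at 40.6 and 37 against 9.06 and 8.26 CPM (log2 fold change -2.16 ± 0.12, adjusted p = 7.7e-10) and 36.3 and 32.2 against 2.86 and 2.1 CPM before. Sohlh2, a germ cell helix-loop-helix factor, was at 132 and 132 against 153 and 143 CPM and was not called, though before OHT the values were 164 and 143 against 58.5 and 44.1 CPM (log2 fold change -1.58 ± 0.10, adjusted p = 2.3e-09). Tex13 and Mageb4 turned from lower before OHT (-2.23 ± 0.30 and -2.79 ± 0.45) to higher after it (1.13 ± 0.27 and 1.03 ± 0.25). Among the Rhox and Xlr genes 6 of 24 tested members were higher (25%) and 4 lower (16.7%), against 2 higher and 20 lower before OHT. The counts became 5 and 1 without WT replicate 1, 5 and 2 without KO replicate 3 and 5 and 0 without KO replicate 4. Rhox13 was at 11.8 and 15.1 against 9.59 and 10 CPM after OHT (log2 fold change -0.45 ± 0.16, adjusted p = 0.0306, with adjusted p = 0.235 when WT replicate 2 was left out, 0.137 when KO replicate 3 was left out and 0.0998 when KO replicate 4 was left out, and log2 fold change -0.26 without WT replicate 2) and 17.2 and 13.9 against 0.758 and 0.796 CPM before it. Rhox6 had the largest fold change of the called members, at 3.28 and 1.79 against 15.7 and 16 CPM (log2 fold change 2.62 ± 0.18, adjusted p = 5.5e-09). Of the 42 genes of these families in the table, 24 had enough counts to be tested.

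Promoter sequence of germline genes was read for 2 motifs in the 250 bases before each start annotated in RefSeq. The E-box CACGTG, which E2F6 partner proteins of the MGA and MAX family bind, was found on either strand in 9 of 27 meiosis genes (33.3%) and 8 of 19 piRNA genes (42.1%), and in 5 of 33 germ cell RNA-binding and transcription genes (15.2%), the list of Taf7l, against 6.86% of all 27025 genes in the table. The E2F6 motif TCCCGC was found in 12 (44.4%), 3 (15.8%) and 9 (27.3%) of these lists, against 18.8%. No E-box overlapped a TCCCGC in the stretches shown. The 160 bases before the start are shown for 4 genes whose genotype difference changed between the comparisons and whose window holds an E-box (RefSeq, GRCm38.p6, 5′ to 3′ along the gene's strand). Capitals mark the E-box, and in Ddx4 also TCCCGC.
Sycp1, chr3:102936101-102936260, minus strand: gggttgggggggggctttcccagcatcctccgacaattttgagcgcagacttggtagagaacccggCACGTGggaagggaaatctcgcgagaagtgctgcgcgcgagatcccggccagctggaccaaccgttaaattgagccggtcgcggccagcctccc
Taf7l, chrX:134476491-134476650, minus strand: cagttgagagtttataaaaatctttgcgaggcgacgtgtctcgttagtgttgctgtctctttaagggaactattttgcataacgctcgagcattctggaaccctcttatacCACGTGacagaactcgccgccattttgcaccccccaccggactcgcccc
Slc25a31, chr3:40708711-40708870, plus strand: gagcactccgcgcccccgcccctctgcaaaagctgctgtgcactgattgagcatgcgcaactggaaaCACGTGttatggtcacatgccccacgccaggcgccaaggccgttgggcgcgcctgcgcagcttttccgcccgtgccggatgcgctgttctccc
Ddx4, chr13:112652311-112652470, minus strand: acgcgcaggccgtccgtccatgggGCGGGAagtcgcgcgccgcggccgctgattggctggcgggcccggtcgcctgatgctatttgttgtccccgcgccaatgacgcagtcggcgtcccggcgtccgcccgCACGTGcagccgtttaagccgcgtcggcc
In Sycp1 the E-box begins 94 bases before the start, in Taf7l 49, in Slc25a31 93 and in Ddx4 29. Dazl, Asz1 and Tdrd12, whose genotype difference also changed between the comparisons, held neither motif in the 250 bases searched. A match is a description of letters, and no binding was measured. Mga, which encodes the E-box binding protein of this complex, was lower at 852 and 770.3 against 661 and 621 CPM (log2 fold change -0.34 ± 0.07, adjusted p = 0.00163). E2f6 was higher at 31.3 and 29.6 against 41.6 and 39.5 CPM (log2 fold change 0.41 ± 0.08, adjusted p = 5.9e-04). Max was at 42.2 and 43.2 against 44.1 and 43.1 CPM and was not called.

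Genes of cholesterol synthesis were lower in KO along most of the pathway. The pathway turns acetyl-CoA into mevalonate, then into squalene and, through lanosterol, into cholesterol, and its genes are switched on together by SREBP2 when sterol is short. Of its enzymes, none of 19 tested was higher and 14 (73.7%) were lower, against 19.8% and 18.6% of all genes tested. The median log2 fold change of the enzymes was -0.44. The counts became 0 and 13 without WT replicate 1. Before OHT 15 were lower and none higher, and no member differed between the comparisons. In pathway order, Acat2 was at 95.4 and 90.7 against 64.6 and 68.9 CPM (log2 fold change -0.48 ± 0.07, adjusted p = 4.3e-05). Hmgcs1, which every cell uses, was listed at 0 in all libraries and cannot be read. Mvk and Pmvk were not called (-0.00 ± 0.12 and -0.10 ± 0.11), while Mvd (-0.34 ± 0.11, with adjusted p = 0.323 when WT replicate 2 was left out, 0.113 when KO replicate 3 was left out and 0.0662 when KO replicate 4 was left out, and log2 fold change -0.13 without WT replicate 2), Idi1 (-0.94 ± 0.22), Fdps (-0.72 ± 0.10) and Fdft1 (-0.64 ± 0.08) were lower. Sqle, the squalene epoxidase, was at 129 and 138 against 103 and 111 CPM (log2 fold change -0.32 ± 0.09, adjusted p = 0.00701, with adjusted p = 0.0779 when KO replicate 3 was left out). After squalene, Lss (-0.83 ± 0.07), Cyp51 (-0.66 ± 0.07), Msmo1 (-0.84 ± 0.07), Nsdhl (-0.22 ± 0.08, with adjusted p = 0.196 when WT replicate 1 was left out, 0.121 when KO replicate 3 was left out and 0.164 when KO replicate 4 was left out), Hsd17b7 (-0.44 ± 0.08) and Ebp (-0.30 ± 0.08, with adjusted p = 0.0961 when KO replicate 4 was left out) were lower. Dhcr7, which makes cholesterol from 7-dehydrocholesterol, had the largest change, at 81.4 and 86.7 against 27.7 and 33.7 CPM (log2 fold change -1.45 ± 0.10, adjusted p = 9.1e-09). Tm7sf2 and Sc5d, at -0.00 ± 0.12 and -0.17 ± 0.08, were not called.

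**Figure D4:**
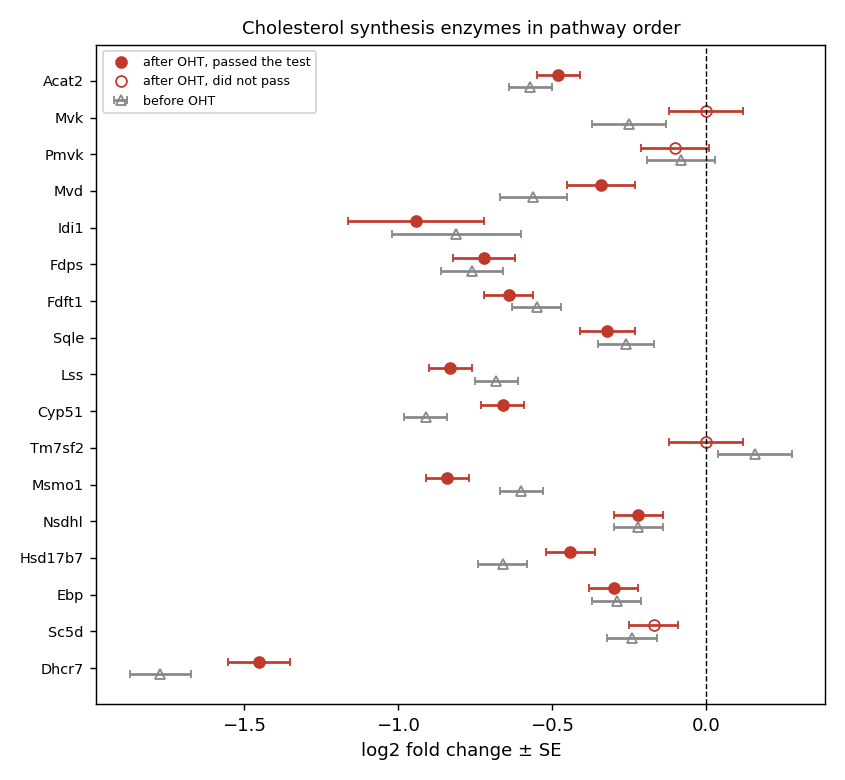
Log2 fold change with its SE for enzymes of cholesterol synthesis, in pathway order from top to bottom, with KO over WT after OHT as red circles and Rif1F/F over Rif1+/+ before OHT as open grey triangles. Filled red circles passed the test, and the dashed line marks no change. Dhcr7 lies furthest left in both comparisons, and Mvk, Pmvk, Tm7sf2 and Sc5d did not pass after OHT.

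Regulators and lipid uptake genes moved less evenly. As a reference, 19.8% of all genes tested were higher and 18.6% lower. Of genes that control SREBP or take up lipid, 3 of 23 tested members were higher (13%) and 9 lower (39.1%). These became 3 and 8 without WT replicate 1. Insig1, which holds SREBP in the endoplasmic reticulum and is itself an SREBP target, was at 169 and 183 CPM in the WT libraries and 102 and 106 CPM in the KO libraries (log2 fold change -0.76 ± 0.07, adjusted p = 5.1e-07). Lrp1, a lipoprotein receptor, was at 374 and 418 against 261 and 251 CPM (log2 fold change -0.63 ± 0.07, adjusted p = 4.3e-06). Srebf1 and Srebf2, the SREBP genes, were at 61 and 84.2 against 83.2 and 82.4 CPM and 216 and 276 against 212 and 253 CPM and were not called. Nr1h2, the sterol-sensing receptor LXR beta, was higher at 33.8 and 51 against 73.8 and 76.3 CPM (log2 fold change 0.83 ± 0.13, adjusted p = 7.6e-05), and Stard4, a sterol carrier, turned from lower before OHT (-0.62 ± 0.08) to higher after it (0.23 ± 0.08, with adjusted p = 0.105 when WT replicate 1 was left out and 0.35 when KO replicate 4 was left out, and log2 fold change 0.13 without KO replicate 4). In fatty acid synthesis and desaturation 4 of 23 tested members were higher (17.4%) and 12 lower (52.2%). The counts became 3 and 13 without WT replicate 1. Scd1 and Scd2, the stearoyl-CoA desaturases, were at 145 and 159.8 against 72 and 79 CPM (log2 fold change -1.01 ± 0.08, adjusted p = 5.3e-08) and 833 and 935 against 552 and 598 CPM (log2 fold change -0.62 ± 0.08, adjusted p = 1.8e-05). Acsl4, which activates arachidonic acid, was at 83.9 and 85.5 against 45.1 and 48.2 CPM (log2 fold change -0.86 ± 0.06, adjusted p = 1.7e-08). Mlxipl, the carbohydrate-response factor, was at 7.6 and 8.54 against 4.63 and 3.64 CPM (log2 fold change -0.97 ± 0.17, adjusted p = 2.1e-04). Acsl1 and Elovl7, at 95.5 and 94 against 149 and 149 CPM (0.65 ± 0.06) and 9.49 and 7.11 against 19.8 and 19.6 CPM (1.24 ± 0.13), were higher. Fasn and Acly, the synthase and citrate lyase at the head of the pathway, were at 1221 and 1459 against 1209 and 1221 CPM and 850.3 and 901 against 907 and 901 CPM and were not called.

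Promoters of the cholesterol genes were read in the same way for the sterol response element TCACNCCAC and for the CCAAT and GGGCGG motifs of its usual partners NF-Y and Sp1, on both strands. CCAAT was found in 14 of the 15 genes with a RefSeq window (93.3%), against 37.5% of all genes, and GGGCGG in 14 (93.3%), against 35.4%. The sterol element as spelled was found in 1 of the 15 (6.67%), against 1.22% of all. That gene was Hmgcs1, which had no counts in any library and so is not among the lower enzymes. In the fatty acid genes CCAAT was in 60% and GGGCGG in 65% of 20. The 160 bases before the start are shown for 4 lower enzymes, to show where CCAAT and GGGCGG (or their reverse complements) lie (RefSeq, GRCm38.p6, 5′ to 3′ along the gene's strand, both motifs in capitals).
Dhcr7, chr7:143830054-143830213, plus strand: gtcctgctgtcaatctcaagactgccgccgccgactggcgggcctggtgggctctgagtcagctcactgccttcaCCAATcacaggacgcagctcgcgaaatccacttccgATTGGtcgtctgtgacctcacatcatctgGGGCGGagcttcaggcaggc
Lss, chr10:76531445-76531604, plus strand: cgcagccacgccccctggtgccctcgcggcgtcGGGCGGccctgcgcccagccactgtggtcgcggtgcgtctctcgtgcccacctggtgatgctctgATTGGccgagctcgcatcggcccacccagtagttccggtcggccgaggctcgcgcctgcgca
Msmo1, chr8:64733579-64733738, minus strand: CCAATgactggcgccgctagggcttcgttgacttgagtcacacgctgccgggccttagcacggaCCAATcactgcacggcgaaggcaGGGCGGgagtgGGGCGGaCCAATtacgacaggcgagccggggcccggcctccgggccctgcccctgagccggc
Idi1, chr13:8885446-8885605, plus strand: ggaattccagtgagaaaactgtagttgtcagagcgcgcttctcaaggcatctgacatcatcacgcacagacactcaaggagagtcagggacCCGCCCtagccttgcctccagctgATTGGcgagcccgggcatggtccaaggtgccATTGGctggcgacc
Dhcr7 has several annotated starts, and this is the window with both motifs.

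Histone genes of S phase were higher in KO, and the size of that difference depended on 1 library. Of 57 genes for replication-dependent histones, 53 were higher (93%) and none lower, against 19.8% and 18.6% of all genes tested. The median log2 fold change of the histone genes was 1.09. Without WT replicate 1, the library with the lowest histone sum, 44 were higher and the median was 0.62. Without KO replicate 4, the highest, 36 were higher. Before OHT 12 were higher and 2 lower, and the median was 0.24. Hist1h1b, a linker histone, was at 236 and 257 CPM in the WT libraries and 577 and 609 CPM in the KO libraries (log2 fold change 1.27 ± 0.10, adjusted p = 6.8e-08), and here the WT libraries were close to each other. In Hist1h4d (112 and 275 against 354 and 459 CPM) and Hist1h1c (259 and 436 against 519 and 585 CPM) WT replicate 1 was well below WT replicate 2. Hist1h1a was at 620.4 and 625 against 825 and 854 CPM (log2 fold change 0.43 ± 0.08, adjusted p = 6.2e-04). Hist1h3b was at 52.3 and 72.5 against 105 and 116 CPM (log2 fold change 0.83 ± 0.11, adjusted p = 1.9e-05). Hist1h3i was at 11.9 and 18.9 against 40.5 and 43.4 CPM (log2 fold change 1.45 ± 0.19, adjusted p = 1.5e-05). Copies are near identical, with 87.6% of the 50-base words of Hist1h3i found elsewhere, mostly in Hist1h3h, so single genes are uncertain. WT replicate 1 held both the highest Lars2 level and the lowest histone sum of the 4 libraries. Most of these transcripts lack a poly(A) tail, and no source used here states whether poly(A) selection was made.

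The next lists are set against 19.8% higher and 18.6% lower over all genes tested. Of RIF1's partners and genes of replication timing, 4 of 36 tested members were higher (11.1%) and 15 lower (41.7%). Mcm2 and Mcm4, subunits of the replicative helicase, were among the lower ones. The log2 fold change of Mcm2 was -0.22 ± 0.07, with adjusted p = 0.115 when WT replicate 2 was left out, 0.158 when KO replicate 3 was left out and 0.0602 when KO replicate 4 was left out. That of Mcm4 was -0.28 ± 0.07, with adjusted p = 0.0623 when WT replicate 1 was left out. List counts became 1 and 6 without WT replicate 1, 2 and 10 without KO replicate 3 and 1 and 7 without KO replicate 4. Trp53bp1, which encodes 53BP1, was at 129 and 119 against 101 and 92.3 CPM (log2 fold change -0.36 ± 0.07, adjusted p = 8.2e-04). Orc2, an origin recognition subunit, was at 214 and 188 against 159 and 158 CPM (log2 fold change -0.34 ± 0.07, adjusted p = 9.9e-04). Of the catalytic subunits of protein phosphatase 1, which RIF1 brings to chromatin, Ppp1ca was at 285 and 275 against 309 and 329 CPM (0.19 ± 0.07, with adjusted p = 0.0505 when WT replicate 1 was left out, 0.134 when WT replicate 2 was left out, 0.063 when KO replicate 3 was left out and 0.271 when KO replicate 4 was left out). Ppp1cb was at 328 and 322 against 242 and 266 CPM (-0.35 ± 0.08). Ppp1cc was at 4.67 and 8.96 against 12.9 and 14 CPM (0.99 ± 0.19, and log2 fold change 0.60 without WT replicate 1 and 1.53 without WT replicate 2). Of cyclins, their kinases and inhibitors, 7 of 39 tested members were higher (17.9%) and 14 lower (35.9%). The counts became 6 and 12 without WT replicate 1, 4 and 12 without KO replicate 3 and 3 and 11 without KO replicate 4. Ccnb1 and Ccnb2, the mitotic cyclins, were at 70.5 and 74.4 against 41.2 and 39.1 CPM (log2 fold change -0.85 ± 0.14, adjusted p = 1.0e-04) and 153 and 149 against 112 and 111 CPM (log2 fold change -0.43 ± 0.06, adjusted p = 3.8e-05), and neither differed before OHT (-0.05 ± 0.13 and 0.04 ± 0.06). Cdc25c, which activates the mitotic kinase, was at 39.3 and 38.1 against 22.6 and 22 CPM (log2 fold change -0.79 ± 0.08, adjusted p = 6.7e-07). Ccnd1, Ccnd2 and Cdk6, which drive entry into S phase, were at 127 and 137 against 68.7 and 66.8 CPM, 18.9 and 15.7 against 8.04 and 5.76 CPM and 30.8 and 30.3 against 13.1 and 13.5 CPM, lower both after OHT and before it. Cdkn1b, which encodes the inhibitor p27, was higher at 18.4 and 24.4 against 28.3 and 31.3 CPM (log2 fold change 0.48 ± 0.12, adjusted p = 0.00409, with adjusted p = 0.0552 when WT replicate 1 was left out and 0.0571 when KO replicate 4 was left out, and log2 fold change 0.30 without WT replicate 1).

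Pluripotency genes were called in both directions (19.8% higher and 18.6% lower of all genes tested). Of core and naive factors 9 of 30 tested members were higher (30%) and 8 lower (26.7%). The counts became 7 and 6 without WT replicate 1, 8 and 5 without KO replicate 3 and 3 and 7 without KO replicate 4. Nanog and Sox2 were at 971 and 882 against 806 and 885 CPM and 339 and 449 against 387 and 395 CPM and were not called, and Pou5f1, which encodes OCT4, was at 749 and 860.0 against 933 and 973 CPM (log2 fold change 0.24 ± 0.08, adjusted p = 0.029, with adjusted p = 0.198 when WT replicate 1 was left out, 0.0668 when KO replicate 3 was left out and 0.164 when KO replicate 4 was left out). Zfp42, which encodes REX1, was at 125 and 123 CPM in the WT libraries and 316 and 304 CPM in the KO libraries (log2 fold change 1.32 ± 0.08, adjusted p = 3.6e-09). Klf4 and Nr0b1 were at 234 and 276 against 370.3 and 433 CPM (0.66 ± 0.10) and 73.3 and 89.1 against 129 and 139 CPM (0.72 ± 0.10). Dppa2 and Dppa4, partner proteins that prime Dux and bivalent genes, were lower at 59.4 and 49 against 25.5 and 26.1 CPM (log2 fold change -1.07 ± 0.11, adjusted p = 1.2e-06) and 51.9 and 46.4 against 29.3 and 28.2 CPM (log2 fold change -0.78 ± 0.08, adjusted p = 7.1e-07). Prdm14, which represses DNA methyltransferases in mESC, was at 198 and 178 against 107 and 101 CPM (log2 fold change -0.85 ± 0.09, adjusted p = 2.1e-06). Dppa3, a maternal factor, was at 17.8 and 18.5 against 9.76 and 10.3 CPM (log2 fold change -0.86 ± 0.13, adjusted p = 6.5e-05). In the pathway of LIF, which the medium supplied, 4 of 18 were higher and 3 lower, with Stat3 at 137 and 127 against 91.6 and 97.7 CPM (-0.48 ± 0.07). Socs2, its target, was at 48.3 and 45.6 against 30.7 and 32.8 CPM (-0.56 ± 0.09). List counts became 2 and 2 without WT replicate 1 and 1 and 2 without KO replicate 4.

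Members of signalling pathways were called in both directions, Wnt genes at shares near the 19.8% and 18.6% of all genes tested. Of Wnt genes 8 of 40 tested members were higher (20%) and 9 lower (22.5%). These became 6 and 8 without WT replicate 1 and 3 and 7 without KO replicate 4. Among receptors Fzd1 was at 4.57 and 4.47 CPM in the WT libraries and 12.8 and 13.1 CPM in the KO libraries (log2 fold change 1.52 ± 0.12, adjusted p = 6.5e-08). Fzd8 was at 5.72 and 7.46 against 12.3 and 13.2 CPM (log2 fold change 0.95 ± 0.14, adjusted p = 3.4e-05). Among targets and effectors Lef1 was at 12.4 and 13.5 against 4.83 and 5.3 CPM (log2 fold change -1.35 ± 0.11, adjusted p = 6.3e-08). Notum, a secreted Wnt deacylase, was at 28.6 and 34 against 7.71 and 8.23 CPM (log2 fold change -1.97 ± 0.16, adjusted p = 8.0e-08). Sp5 was at 1.48 and 1.91 against 0.595 and 0.863 CPM (log2 fold change -1.20 ± 0.40, adjusted p = 0.0239, with adjusted p = 0.0861 when WT replicate 2 was left out, 0.164 when KO replicate 3 was left out and 0.0567 when KO replicate 4 was left out). These targets were lower along with T, while Axin2 was at 27.5 and 36.7 against 35.5 and 41.2 CPM and was not called. Of Nodal and activin genes 7 of 20 tested members were higher (35%) and 6 lower (30%). The counts became 7 and 5 without WT replicate 1 and 7 and 3 without KO replicate 4. Lefty1 and Lefty2, the secreted inhibitors of Nodal, were at 23 and 34.4 against 56.2 and 68.7 CPM (log2 fold change 1.13 ± 0.16, adjusted p = 4.6e-05) and 135 and 168 against 208 and 225 CPM (log2 fold change 0.52 ± 0.13, adjusted p = 0.00359), and neither differed before OHT (-0.00 ± 0.18 and -0.11 ± 0.13). Pcsk6 and Furin, the proteases that cut the Nodal precursor, were at 183 and 181 against 285 and 288 CPM (0.65 ± 0.07) and 42.1 and 56.1 against 75.2 and 88.6 CPM (0.74 ± 0.11). Nodal itself was at 119 and 119 against 119.6 and 124 CPM and was not called. Skil, a repressor of SMAD signalling, was at 197 and 195 against 134 and 127 CPM (log2 fold change -0.59 ± 0.07, adjusted p = 4.5e-06).

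Of BMP genes 6 of 23 tested members were higher (26.1%) and 5 lower (21.7%), against 19.8% and 18.6% of all genes tested. The counts became 3 and 2 without WT replicate 1, 3 and 4 without KO replicate 3 and 4 and 2 without KO replicate 4. The ligand Bmp4 was at 6.59 and 6.36 against 2.15 and 2.74 CPM (log2 fold change -1.40 ± 0.18, adjusted p = 1.5e-05) and the target Id3 at 12.4 and 18 against 5.79 and 7.15 CPM (log2 fold change -1.23 ± 0.27, adjusted p = 0.00199), while Bmp2, at 0.59 and 0.597 against 1.82 and 1.39 CPM (log2 fold change 1.43 ± 0.36, adjusted p = 0.00438, with adjusted p = 0.0514 when KO replicate 3 was left out), and the decoy receptor Bambi, at 15.5 and 14.9 against 23.6 and 26 CPM (0.71 ± 0.11), were higher. Of genes for fibroblast growth factors and receptors, 1 of 24 was higher and 3 lower, against 3 higher and 13 lower before OHT. The counts became 1 and 3 without WT replicate 1 and 3 and 3 without WT replicate 2. Fgf17 was at 7.69 and 10.1 against 2.08 and 2.5 CPM (log2 fold change -1.95 ± 0.18, adjusted p = 3.1e-07). Fgfr2 was at 13.1 and 10.3 against 5.85 and 6.22 CPM (log2 fold change -0.96 ± 0.11, adjusted p = 4.9e-06). Fgfr1 was at 103 and 102 against 129 and 132 CPM (0.35 ± 0.06). Etv4, an ETS factor induced by FGF signals, was at 4.62 and 2.56 against 0.695 and 0.585 CPM (log2 fold change -2.50 ± 0.31, adjusted p = 6.6e-06). Egr1, an immediate early gene, was at 28.3 and 4.63 against 3.31 and 3.11 CPM (log2 fold change -2.37 ± 0.59, adjusted p = 0.00424, with adjusted p = 0.355 when WT replicate 1 was left out, and log2 fold change -0.51 without WT replicate 1). Egr1 was high in WT replicate 1 alone, and the medium held an inhibitor of MEK in all cases. Of Notch genes 4 of 20 were higher and 5 lower. These became 2 and 5 without WT replicate 1 and 2 and 5 without KO replicate 4. Mfng, which modifies Notch receptors, was at 20.4 and 23.5 against 6.22 and 5.67 CPM (log2 fold change -1.88 ± 0.14, adjusted p = 1.6e-08). Dtx1, a regulator of Notch, was at 19 and 30 against 47.9 and 47.6 CPM (log2 fold change 0.96 ± 0.14, adjusted p = 3.3e-05).

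Matrix and adhesion genes were also called both ways (19.8% and 18.6% of all genes tested). Of collagens and laminins 17 of 51 tested members were higher (33.3%) and 11 lower (21.6%). These became 14 and 8 without WT replicate 1, 18 and 6 without WT replicate 2 and 11 and 4 without KO replicate 4. Col11a1, a fibrillar collagen, was at 3.41 and 3.41 CPM in the WT libraries and 13 and 13.7 CPM in the KO libraries (log2 fold change 1.97 ± 0.13, adjusted p = 7.1e-09) and widened after OHT (1.48 ± 0.20 on the log2 scale, adjusted p = 2.8e-04). Col4a1 and Col4a2, paired chains of basement membrane, were at 139 and 179.5 against 289 and 274 CPM (0.82 ± 0.09) and 72.3 and 100.3 against 141 and 138 CPM (0.70 ± 0.10). Col1a2 had 1 count or none in the WT libraries and was at 0.0164 and 0 against 0.86 and 1.2 CPM. Lamb3 and Col12a1, at 3.43 and 7.21 against 1.12 and 0.585 CPM and 1.39 and 6.96 against 0.695 and 0.678 CPM, were lower but differed between the WT libraries. Of integrins 6 of 24 tested members were higher (25%) and 7 lower (29.2%), with Itga8 at 1.1 and 1.21 against 3.08 and 3.73 CPM (1.56 ± 0.24). Itga2 was at 1.52 and 2.43 against 0.463 and 0.401 CPM (-2.18 ± 0.39). List counts became 6 and 6 without WT replicate 1 and 6 and 4 without KO replicate 4. Of guidance genes, Sema3d was at 0.574 and 0.482 against 4.43 and 3.85 CPM (log2 fold change 2.96 ± 0.24, adjusted p = 6.9e-08). Sema5a was at 2.82 and 3.58 against 13 and 13.3 CPM (log2 fold change 2.04 ± 0.16, adjusted p = 5.5e-08). Sema5b was at 17.9 and 22.5 against 7.74 and 8.47 CPM (log2 fold change -1.31 ± 0.15, adjusted p = 2.5e-06). In that list 8 of 31 were higher and 8 lower. The counts became 6 and 8 without WT replicate 1, 8 and 5 without KO replicate 3 and 5 and 7 without KO replicate 4. Dsg2, a desmosomal cadherin, was at 85.3 and 83.8 against 43.9 and 47.6 CPM (log2 fold change -0.89 ± 0.08, adjusted p = 2.6e-07). Ocln, of tight junctions, was at 37.8 and 36.5 against 23.9 and 23.4 CPM (log2 fold change -0.65 ± 0.08, adjusted p = 6.3e-06). Of ephrins and Eph receptors 7 of 21 tested members were higher (33.3%) and 2 lower (9.52%). The counts became 6 and 4 without WT replicate 1. Cadherins and catenins counted 6 higher and 5 lower of 36, and claudins and other tight junction genes 6 and 4 of 26. The claudin counts became 4 and 3 without WT replicate 1, 6 and 2 without WT replicate 2 and 2 and 3 without KO replicate 4.

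Neural genes were called in both directions, against 19.8% higher and 18.6% lower of all genes tested, and the share of higher neural transcription factors and of lower synaptic genes was near those values. Of neural transcription factors 5 of 26 tested members were higher and 7 lower (26.9%), Pax6 among the lower ones at 0.869 and 0.887 against 0.165 and 0.431 CPM (log2 fold change -1.53 ± 0.36, adjusted p = 0.00277, with adjusted p = 0.0586 when KO replicate 3 was left out, and log2 fold change -2.38 without KO replicate 4). Sox21 was at 14.3 and 15 against 8.73 and 9.52 CPM (log2 fold change -0.68 ± 0.13, adjusted p = 4.7e-04). List counts became 1 and 5 without WT replicate 1, 1 and 4 without KO replicate 3 and 1 and 6 without KO replicate 4. Of neurofilament and synaptic genes 9 of 29 tested members were higher (31%) and 6 lower (20.7%). The counts became 8 and 6 without WT replicate 1. Nefh, the heavy neurofilament, was at 43.7 and 41.4 against 28.9 and 28.3 CPM (log2 fold change -0.57 ± 0.08, adjusted p = 1.5e-05). Map1b, a microtubule protein, was at 206 and 188 against 138 and 146 CPM (-0.47 ± 0.07). Nefh and Map1b were thus lower while Nefl and Nefm were higher.

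Chromatin genes too were called in both directions (19.8% and 18.6% of all genes tested). Of Polycomb subunits 13 of 41 tested members were higher (31.7%) and 13 lower (31.7%). The counts became 10 and 10 without WT replicate 1 and 7 and 11 without KO replicate 4. Phf19, which helps PRC2 to bind unmethylated CpG islands, was at 30.9 and 38 CPM in the WT libraries and 4.8 and 4.19 CPM in the KO libraries (log2 fold change -2.94 ± 0.18, adjusted p = 2.7e-09), and its gap widened after OHT (-0.82 ± 0.24 on the log2 scale, adjusted p = 0.0495). Scml2, a PRC1-linked protein, was at 124 and 131 against 48.4 and 36.5 CPM (log2 fold change -1.59 ± 0.15, adjusted p = 5.0e-07). Bcorl1, a corepressor, was at 46.1 and 48.1 against 29.3 and 30.8 CPM (log2 fold change -0.65 ± 0.09, adjusted p = 2.3e-05). The X-linked AU022751 turned from lower before OHT (-1.89 ± 0.16) to higher after it, at 11.4 and 15.4 against 23.7 and 24.9 CPM (log2 fold change 0.86 ± 0.14, adjusted p = 1.1e-04). Of genes for DNA methylation and methylation of histone H3 lysine 9, 6 of 35 tested members were higher (17.1%) and 13 lower (37.1%). The counts became 6 and 10 without WT replicate 1 and 2 and 11 without KO replicate 4. The de novo methyltransferase genes Dnmt3a, Dnmt3b and their cofactor Dnmt3l were at 100.1 and 101 against 66.3 and 68.3 CPM (-0.57 ± 0.08), 154 and 145 against 102 and 95.8 CPM (-0.60 ± 0.07) and 150.4 and 139.7 against 84.7 and 82.7 CPM (-0.79 ± 0.06). Zbtb38, a reader of methylated DNA, was at 41.1 and 42 against 24.6 and 22.2 CPM (log2 fold change -0.83 ± 0.10, adjusted p = 7.9e-06), while Dnmt1 and Trim28, which encodes KAP1, were at 832 and 848 against 913 and 926 CPM and 2383 and 2282 against 2081 and 2072 CPM and were not called. Among genes named Zfp 65 of 349 were higher and 46 lower, against 117 and 25 before OHT. The counts became 49 and 24 without WT replicate 1, 50 and 24 without KO replicate 3 and 39 and 24 without KO replicate 4. Zfp553 was at 62.9 and 67.5 against 171 and 191 CPM (log2 fold change 1.47 ± 0.09, adjusted p = 1.2e-09). Zfp597 was at 60.6 and 52.3 against 25.7 and 26.7 CPM (log2 fold change -1.11 ± 0.09, adjusted p = 3.4e-08). Counts of Xist and its antisense Tsix are less certain, as no source used here states whether counting used strand. Of their 50-base words, 11.8% for Xist and 33.3% for Tsix occur in another gene, mostly in each other. The genotype difference of Xist moved by -1.28 on the log2 scale between the comparisons. Xist, the RNA that coats the inactive X chromosome, was at 35.1 and 42.6 against 30.5 and 21.4 CPM (log2 fold change -0.58 ± 0.15, adjusted p = 0.00542, with adjusted p = 0.129 when KO replicate 4 was left out, and log2 fold change -0.35 without KO replicate 4) and its antisense Tsix at 4.54 and 3.26 against 7.04 and 5.42 CPM (log2 fold change 0.67 ± 0.18, adjusted p = 0.00621, with adjusted p = 0.0622 when WT replicate 2 was left out and 0.112 when KO replicate 3 was left out), both below 50 CPM in every library.

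Metabolic and stress genes were called in both directions, against 19.8% higher and 18.6% lower of all genes tested. Shares in the list of glutathione and NRF2 targets were near those values, and neither share of hypoxia targets was above them. Phgdh, Atf5 and Nupr1 were among the genes that were higher. Phgdh, the first enzyme of serine synthesis and an ATF4 target, was at 13.9 and 18.3 CPM in the WT libraries and 34.9 and 36.8 CPM in the KO libraries (log2 fold change 1.16 ± 0.12, adjusted p = 1.6e-06). Atf5 was at 4.05 and 4.26 against 11.4 and 10.4 CPM (log2 fold change 1.39 ± 0.15, adjusted p = 1.8e-06). Nupr1, a stress-induced chromatin protein, was at 6.41 and 7.88 against 18.7 and 20.8 CPM (log2 fold change 1.47 ± 0.16, adjusted p = 1.7e-06). Gpt2, an alanine aminotransferase, was lower at 130.4 and 135 against 80.9 and 76.5 CPM (log2 fold change -0.75 ± 0.07, adjusted p = 2.4e-07). In the list of ATF4 targets and amino acid supply 6 of 32 were higher and 9 lower. The counts became 4 and 9 without WT replicate 1. Among chaperones and the unfolded protein response 4 of 36 tested members were higher (11.1%) and 14 lower (38.9%), with Hsph1 at 595 and 511 against 342 and 346 CPM (log2 fold change -0.68 ± 0.08, adjusted p = 4.8e-06). Bag3, a co-chaperone of HSP70, was at 13 and 11.8 against 4.2 and 3.17 CPM (log2 fold change -1.75 ± 0.14, adjusted p = 6.7e-08). List counts became 3 and 6 without WT replicate 1 and 2 and 6 without KO replicate 4. Of hypoxia targets 4 of 28 were higher and 5 lower, with Ndrg1 at 17 and 16.6 against 34.4 and 37.3 CPM (log2 fold change 1.09 ± 0.10, adjusted p = 1.5e-07). Pdk1 was at 70.9 and 72.6 against 49.1 and 52.3 CPM (-0.50 ± 0.07). List counts became 4 and 5 without WT replicate 1. Among glutathione and NRF2 target genes 9 of 48 were higher and 10 lower, with the peroxidase Gpx2 at 11.1 and 8.85 against 2.98 and 3.17 CPM (log2 fold change -1.70 ± 0.19, adjusted p = 1.9e-06). List counts became 11 and 7 without WT replicate 1 and 7 and 4 without KO replicate 3. Of dehydrogenases and cytochrome P450 genes 21 of 59 tested members were higher (35.6%) and 6 lower (10.2%), among them Aldh3a1 at 1.77 and 1.93 against 6.95 and 5.79 CPM (log2 fold change 1.78 ± 0.22, adjusted p = 6.8e-06). Cyp39a1, an oxysterol hydroxylase, was at 6.52 and 6.46 against 12.8 and 12 CPM (log2 fold change 0.94 ± 0.12, adjusted p = 1.0e-05). List counts became 18 and 5 without WT replicate 1.

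Some lipid mediator genes had large changes, on both sides. Ptgr1, which inactivates leukotriene B4 and prostaglandins, was at 325 and 306 CPM in the WT libraries and 81.7 and 72.5 CPM in the KO libraries (log2 fold change -2.03 ± 0.10, adjusted p = 1.7e-10). The phospholipases Pla2g1b and Pla2g4a, which release fatty acids for such mediators, moved in opposite directions, Pla2g1b at 19.8 and 20.2 against 5.39 and 4.13 CPM (log2 fold change -2.07 ± 0.14, adjusted p = 6.0e-09). Pla2g4a was at 1.95 and 2.58 against 12.9 and 14.1 CPM (log2 fold change 2.58 ± 0.17, adjusted p = 3.6e-09). The gap of Pla2g4a had been smaller before OHT (1.96 ± 0.26 on the log2 scale, adjusted p = 1.9e-04). In that list 9 of 46 were higher and 9 lower, near the 19.8% higher and 18.6% lower of all genes tested. The counts became 6 and 7 without WT replicate 1 and 4 and 8 without KO replicate 4. Of transporters of the Slc class 58 of 315 were higher and 63 lower, also near those shares. Slc4a4, a bicarbonate cotransporter, was at 21.8 and 19.7 against 66.2 and 65.8 CPM (log2 fold change 1.67 ± 0.08, adjusted p = 3.9e-11). Slc5a1, the glucose cotransporter SGLT1, was at 38.2 and 29.3 against 9.23 and 9.28 CPM (log2 fold change -1.87 ± 0.14, adjusted p = 2.0e-08). List counts became 44 and 45 without WT replicate 1 and 43 and 34 without KO replicate 4. Of potassium channel genes 15 of 73 tested members were higher (20.5%) and 5 lower (6.85%), with Kcnab2 at 3.1 and 3.74 against 8.17 and 8.41 CPM (1.28 ± 0.14). List counts became 14 and 5 without WT replicate 1, 17 and 3 without WT replicate 2 and 11 and 2 without KO replicate 4.

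Respiratory chain genes of the nucleus had 18 of 80 members higher (22.5%) and 4 lower (5%), against 19.8% and 18.6% of all genes. Changes were mostly small, with a median log2 fold change of 0.04. Uqcr10, of complex III, was at 86.1 and 104 against 147 and 156 CPM (log2 fold change 0.67 ± 0.08, adjusted p = 1.0e-05). Cox7b2, a testis form of a complex IV subunit, was at 1.9 and 1.5 against 5.66 and 5.12 CPM (log2 fold change 1.65 ± 0.17, adjusted p = 9.6e-07). List counts became 12 and 3 without WT replicate 1 and 10 and 2 without KO replicate 4. Of ribosomal protein genes 5 of 81 tested members were higher (6.17%) and 16 lower (19.8%), and these have many processed copies in the genome, so their counts are uncertain. Rps2 was at 9.75 and 11.6 against 42.1 and 46.8 CPM (log2 fold change 2.06 ± 0.10, adjusted p = 9.1e-11). Rpsa was at 37.9 and 34.7 against 19.9 and 16.8 CPM (log2 fold change -0.98 ± 0.10, adjusted p = 4.9e-07). Rps6 was at 9.75 and 11.2 against 4.37 and 4.96 CPM (log2 fold change -1.16 ± 0.15, adjusted p = 1.3e-05). The share of 50-base words found in other loci was 43% for Rps2, 28.8% for Rpsa and 43.8% for Rps6. The counts became 5 and 12 without WT replicate 1, 12 and 16 without WT replicate 2 and 3 and 7 without KO replicate 4. Small nucleolar RNA genes counted 7 higher and 6 lower of 90. These became 5 and 4 without WT replicate 1, 7 and 13 without WT replicate 2, 7 and 3 without KO replicate 3 and 3 and 5 without KO replicate 4.

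Interferon-related and other immune genes were called in both directions, with shares in the interferon list near the 19.8% higher and 18.6% lower of all genes tested. Of interferon-stimulated and MHC class I genes 15 of 66 tested members were higher (22.7%) and 16 lower (24.2%). The counts became 12 and 15 without WT replicate 1. Members of the oligoadenylate synthetase family, which sense double-stranded RNA, were lower, with Oas1a at 46.8 and 45.7 CPM in the WT libraries and 23.6 and 19.3 CPM in the KO libraries (log2 fold change -1.11 ± 0.10, adjusted p = 1.6e-07). Oas1d was at 8.29 and 8.25 against 1.46 and 1.17 CPM (log2 fold change -2.66 ± 0.18, adjusted p = 5.3e-09). Oasl1 was at 1.93 and 2.37 against 0.397 and 0.401 CPM (-2.42 ± 0.31 on the log2 scale). Some MHC class I genes and a loading factor were higher, with H2-D1 at 2.28 and 1.89 against 5.46 and 6.1 CPM (log2 fold change 1.47 ± 0.20, adjusted p = 1.8e-05). H2-T3 was at 1.88 and 1.41 against 5.49 and 5.15 CPM (log2 fold change 1.68 ± 0.19, adjusted p = 3.5e-06). Tapbp, tapasin, was at 23.5 and 31.5 against 56.8 and 59 CPM (log2 fold change 1.08 ± 0.12, adjusted p = 1.8e-06), although H2-Q2 was lower (-1.70 ± 0.34). The helicase Ddx58 (RIG-I) was higher at 18.5 and 17 against 27.5 and 28.4 CPM (0.65 ± 0.09 on the log2 scale). Of the 50-base words of Oas1a, 57.6% occur in other genes, mostly Oas1g. Of metallothioneins, galectins, annexins and S100 genes 6 of 34 were higher and 12 lower, with Mt1 at 59.7 and 85.5 against 132 and 154 CPM (log2 fold change 0.98 ± 0.14, adjusted p = 3.2e-05). Anxa1 was at 5.74 and 4.59 against 12 and 11.7 CPM (1.19 ± 0.17 on the log2 scale). Lgals3 was at 15.9 and 13.9 against 8.43 and 8.29 CPM (log2 fold change -0.83 ± 0.11, adjusted p = 1.0e-05). List counts became 7 and 8 without WT replicate 1 and 8 and 5 without KO replicate 3. Of BCL2 family genes 3 of 19 were higher and 8 lower, the proapoptotic Bik at 2.36 and 2.58 against 1.03 and 0.894 CPM (log2 fold change -1.36 ± 0.24, adjusted p = 2.8e-04). Pmaip1, which encodes NOXA, was at 131 and 129 against 105 and 95.5 CPM (-0.38 ± 0.07). List counts became 2 and 4 without WT replicate 1, 5 and 7 without WT replicate 2 and 2 and 5 without KO replicate 4. Of Prame-like genes 4 of 14 were higher and 5 lower, with Pramef8 at 78.4 and 68.3 against 42.1 and 40 CPM (log2 fold change -0.84 ± 0.08, adjusted p = 4.9e-07), and of 10 Serpinb genes and 18 keratins none and 1 (Krt20, at 0.148 and 0.328 against 0.0331 and 0 CPM) were called. The Prame-like counts became 5 and 4 without WT replicate 1.

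**Figure D5:**
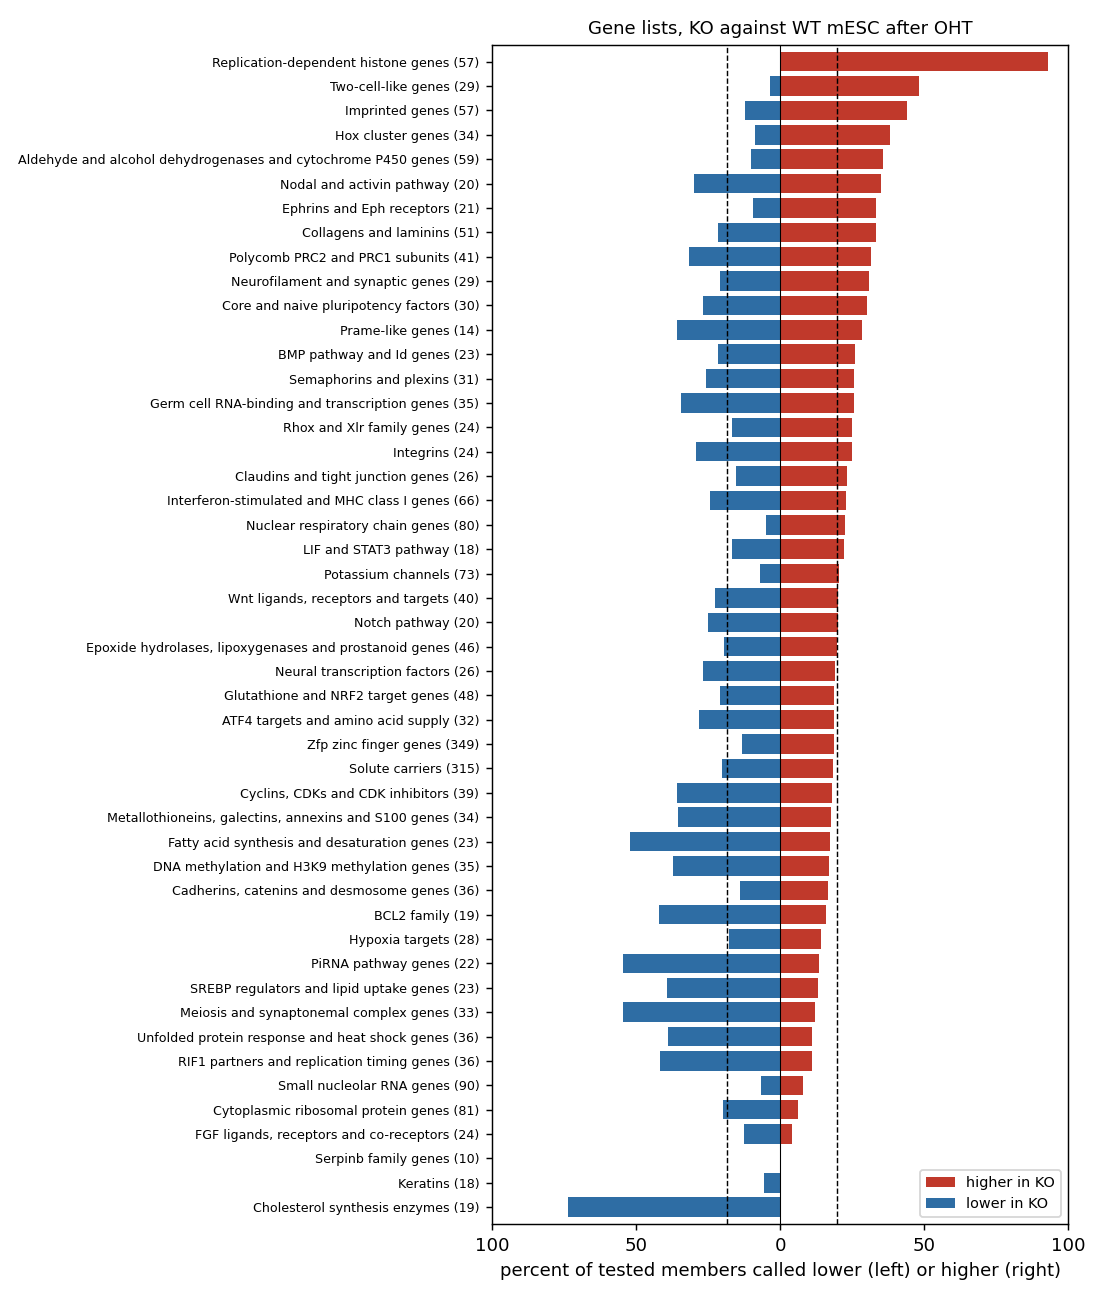
Percent of tested members called higher (red, right) and lower (blue, left) in KO after OHT for each of the 48 gene lists, with the number of tested members beside each name. Dashed lines mark the shares over all genes tested, 19.8% higher and 18.6% lower. Histone genes reach 93% higher, and cholesterol synthesis enzymes have none higher.

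Further genes were among those that moved most between the comparisons. Pkhd1, the fibrocystin gene, and Onecut2, a homeobox factor, were at 4.93 and 14 against 7.18 and 8.04 CPM and 4.77 and 9.39 against 4.93 and 5.39 CPM after OHT, with overlapping groups, and at 0.422 and 0.534 against 2.62 and 4.05 CPM and 2.16 and 1.94 against 7.73 and 6.87 CPM before it (-3.10 ± 0.63 and -2.28 ± 0.48 on the log2 scale). Ms4a10 was at 1.97 and 1.52 against 1.52 and 1.05 CPM and was not called, and at 0.237 and 0.169 against 0.954 and 0.844 CPM before OHT. The noncoding 2610035D17Rik turned from higher before OHT (0.81 ± 0.23) to lower after it (-1.39 ± 0.30). Rbp7, a retinol binding protein, was at 0.541 and 0.443 against 0 and 0.0616 CPM after OHT and 0.396 and 0.506 against 0.245 and 0.362 CPM before. Pdlim3, an actin-associated LIM protein, was at 0.115 and 0.0771 against 0.562 and 1.05 CPM (log2 fold change 3.02 ± 0.44, adjusted p = 4.2e-05). Hgf, hepatocyte growth factor, was at 0.0492 and 0 against 0.364 and 0.585 CPM. Before OHT Pdlim3 was at 0.237 and 0.169 against 0.0734 and 0.0482 CPM and Hgf at 0.264 and 0.169 against 0.122 and 0.169 CPM. The X-linked Fndc3c1 and H2bfm, a histone variant of testis, were at 0.393 and 0.385 against 0.827 and 0.709 CPM and 0.705 and 0.81 against 1.29 and 1.14 CPM, and at 0.317 and 0.337 against 0.0734 and 0 CPM and 0.369 and 0.281 against 0.0489 and 0 CPM before OHT. These values are all below 15 CPM and some rest on few counts.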

How the data were processed

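RNA of 4 female mESC lines was sequenced in mESC without OHT, in mESC given OHT for 2 days and in embryoid bodies, giving 12 libraries, of which the 8 of mESC are described. Values are raw counts per gene that the authors deposited in 1 table. Per the submitters' processing notes BWA, HTSeq and DESeq2 were used with mouse build mm9. Not given in the sources used here are the annotation, the strand setting and any poly(A) selection. Totals of 29505686 to 64808897 counts in the 4 libraries compared set the precision. The spread behind the p-values was estimated over all 12 libraries within their groups, embryoid bodies included. Within a group it lies between 2 lines, so line and technical differences cannot be told apart in it. The p-values measure differences against that spread only.

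Counts were fitted with edgeR 4.0.16 (R 4.3.3, limma 3.58.1) in 1 model of the 6 groups, after filterByExpr and TMM scaling, using the quasi-likelihood test with Benjamini-Hochberg adjustment over the 17115 genes tested. Contrasts were KO against WT after OHT, Rif1F/F against Rif1+/+ before OHT, and the first minus the second. Same-numbered libraries are the same cell line by their titles, so line could serve as a block for the third contrast, but it is nested in genotype in the first. Alternatives were RLE scaling, DESeq2 1.42.0, no low-count filter, only the groups compared, and each library left out. The fit was tested on simulated data. Tables and figures used Python 3.11.15, pandas 2.3.3 and matplotlib 3.10.9.

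Of the symbols, 23174 matched RefSeq directly, 1096 through a synonym and 25 through GENCODE, and 96 did not match. Gene order and sequences are from GRCm38.p6 and were used for names, neighbours and sequences only. Shared sequence is the share of 50-base words of a gene's transcripts found in another gene. The members and the 48 gene lists were chosen with earlier results of these data known. Named by rule were Rif1, Xist, Tsix and Lars2. So were the 15 genes per direction with the largest fold change (mean of at least 5 CPM in the higher group) and the 10 per direction with the largest difference in CPM. Both of these sets were taken only from called genes with no overlap between the groups, so their separation was set by the choice. The rule also named the 8 per direction with the largest change between the comparisons (mean log2 CPM of at least 0). In each list it named the 4 members at most with adjusted p lowest. Other genes were named after their values were seen, for their place in a pathway, list or run. Some genes that this rule names are not reported here.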

Additional observations from a re-analysis of the deposited data

Results flagged for a closer look

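The genes listed here had a genotype difference after OHT that differed from the one before OHT by the test of the difference itself (edgeR's quasi-likelihood test, Benjamini-Hochberg adjusted p under 0.05 over all genes tested). Values in parentheses are that difference on the log2 scale, after minus before. A move is relative to WT, so it does not say that the level in the KO lines itself rose or fell. Pkhd1 and Ms4a10, for example, were at higher levels in the Rif1F/F lines after OHT than before it, but rose more in the WT lines. Lincenc1 hardly changed in the Rif1F/F lines, while the WT lines fell from an already very low level. Egr1 was high in a single WT library after OHT.

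The difference moved towards higher levels in KO for Dux (4.75), Pdlim3 (4.72), Hgf (4.59), H2bfm (4.27), Usp17le (4.18), Fndc3c1 (4.03), Rhox13 (3.87), Mageb4 (3.82), Slc25a31 (3.82), Asz1 (3.38), Tex13 (3.37), Lincenc1 (2.91), AU022751 (2.76), Tdrd1 (2.45), Tdrkh (2.01), Pla2g4a (1.96), Lrrk2 (1.94) and Syce1 (1.89). It did so by less for Serpina3h (1.88), Sohlh2 (1.74), Dazl (1.69), Taf7l (1.62), Psma8 (1.56), Col11a1 (1.48), Sycp1 (1.48), Thy1 (1.33), Dlk1 (1.32), Rhox6 (1.31), Ndn (1.23), Cox7b2 (1.16), Lefty1 (1.13), Mov10l1 (1.08), Piwil2 (1.00), Rps2 (0.96), Scml2 (0.96) and Bag3 (0.91). The smallest such changes were those of Ccnd1 (0.91), Ddx4 (0.91), Sema5a (0.91), Stard4 (0.85), Fam111a (0.82), Phgdh (0.80), Rec8 (0.76), Gpat2 (0.75), Mt1 (0.72), Dtx4 (0.68), Hist1h3b (0.68), Dtx1 (0.64), Lef1 (0.64), Lefty2 (0.62), Dppa3 (0.61), Tcl1 (0.61), Ndrg1 (0.59), Oas1a (0.55), Meg3 (0.53), Hist1h1a (0.52), Zfp42 (0.52), Cdk6 (0.45), Dsg2 (0.41) and Insig1 (0.37).

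The difference moved towards lower levels in KO for Rbp7 (-3.27), Pkhd1 (-3.10), Egr1 (-2.77), Ms4a10 (-2.57), LOC105246506 (-2.51), Onecut2 (-2.28), 2610035D17Rik (-2.20), Etv4 (-1.94), H19 (-1.36), Ncoa7 (-1.31), Xist (-1.28), Smc1b (-0.89), Klb (-0.88), Slc5a1 (-0.87), Phf19 (-0.82), Ccnb1 (-0.80), Tdrd12 (-0.79) and Elovl7 (-0.74). It did so by less for Zfp597 (-0.72), Peg10 (-0.71), Sox21 (-0.71), Rif1 (-0.68), Hormad1 (-0.56), Lgals3 (-0.56), Nefh (-0.52), Zfp553 (-0.49), Ccnb2 (-0.47), Cdc25c (-0.47), Dnmt3b (-0.42), Dst (-0.42), Top2a (-0.42), Skil (-0.39), Pdk1 (-0.33) and Dnmt3l (-0.32). All genes given here were named in the text for other reasons or by the rule for the largest changes, and what lies behind the change was not tested.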

How the results depend on the processing

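Of the 268 named genes called after OHT, none changed direction under an alternative that gave it a value, which all did but for 4 genes that were too low to be tested when only the groups compared were fitted. The number that lost the call was 0 with RLE scaling, 1 without the low-count filter, 8 with only those groups, 6 with DESeq2, and from 13 to 25 when 1 library was left out. Leaving out each library in turn gave 2159 to 3366 higher and 1966 to 3178 lower genes after OHT, and 2407 to 3123 higher and 2046 to 2626 lower genes before it. For the difference between the comparisons it gave 312 to 1362 and 198 to 1178. That difference also gave 1125 and 1093 genes with no low-count filter and 445 and 260 with only the groups compared, against 697 and 649. With line as a replicate block it gave 733 and 567. With a single library left in a group, that library is assumed to vary like the other groups. The count of 14 higher 2-cell-like genes became 9 to 12 when 1 library was left out. The cause of these changes was not tested beyond the smaller number of libraries or the larger number of genes in each fit. Of 712 other list counts, 84 moved by more than 1.5 times, and of 320 chromosome counts, 43 did. Low counts limit the 2-cell-like genes and the microRNA genes most.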
